A study of Homo sapiens with 18 samples.

Results

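The genes described here are 9 secreted signals that mark inflammatory states of melanoma and other tumours, the chemokines CXCL8, CXCL1, CXCL2 and CCL2 and the cytokines IL1A, IL1B, IL6, LIF and IL24, together with IL7R, which is not a ligand but the receptor chain for interleukin-7. They were taken by exact gene symbol, and all 10 were found among the 58870 genes of the count table. RNA was sequenced from the human melanoma cell lines WM164, SKMEL28 and A375. Each line carried either a lentiviral GFP control or a lentivirus for Myc-DDK-tagged MAFG, a small MAF transcription factor, both driven by the EF1α promoter. The cells were grown in RPMI with 5% FBS and used as pools selected with blasticidin, so every group shares the transduction and the selection. The control and MAFG vectors differ in the insert, and other differences between the pools were not tested. Each of the 6 conditions had 3 libraries, 18 in all. Nothing in the labels says that the libraries of a condition came from separate cultures, so the p-values measure the spread between these libraries, which may be technical.

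CXCL8, CXCL1 and CXCL2 are chemokines that draw neutrophils through the receptors CXCR1 and CXCR2, and CCL2 draws monocytes through CCR2. Interleukin-1α and interleukin-1β act through the receptor IL1R1 and its partner IL1RAP to activate the transcription factor NF-kB, which in turn switches on genes such as CXCL8 and IL6. Interleukin-6 and LIF both signal through the shared chain IL6ST (gp130) to JAK kinases and STAT3, IL-6 with IL6R and LIF with LIFR. Interleukin-24 belongs to the interleukin-10 family and was first found in differentiating melanoma cells. IL7R is best known from lymphocytes, where it maintains survival through JAK and STAT5.

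Total counts per library ranged from 20122172 to 39025042. Pearson's r of log2 CPM was 0.970 to 0.985 between replicates, 0.966 to 0.976 between MAFG and GFP libraries sharing a line, and 0.758 to 0.879 across lines (a description). MAFG replicate 1 of A375 stood apart from its group, with a mean chi-square per gene of 68.7 and 96.7 against its replicates, where all other pairs of replicates were at 5.90 to 30.2. MAFG itself was higher in each MAFG library than in each GFP library of its line, at 53.1 ± 4.59 against 25.8 ± 2.91 CPM in WM164, 37.3 ± 1.54 against 24.1 ± 3.47 in SKMEL28 and 47.3 ± 9.24 against 27.0 ± 4.98 in A375 (SD, n = 3 libraries; CPM are counts scaled to a common library size, with TMM over all 18 libraries). In A375 this difference, 0.80 on the log2 scale, did not pass the test (adjusted p = 0.0655, edgeR). The WM164 (1.04) and SKMEL28 (0.64) differences passed. In the deposited TPM (values per length and library) the gap was wider and did not overlap in any line, at 24.5 ± 3.34 against 2.89 ± 0.543 in WM164, 17.0 ± 2.66 against 3.96 ± 0.641 in SKMEL28 and 25.2 ± 2.88 against 4.22 ± 0.291 in A375 (SD, n = 3). The summed level of 9 melanoma lineage genes was 5167 to 5488 CPM in WM164 and 5144 to 5411 in SKMEL28 with GFP, and 3325 to 3369 and 4525 to 4751 with MAFG. In A375 it was 36.3 to 42.6 CPM with GFP and 122 to 174 with MAFG, and MLANA and TYR were at 0 in both conditions. The mean of SOX10 there was 8.85 CPM with GFP and 114 with MAFG, and that of MITF was 28.6 and 27.4. No other gene of the 9 exceeded a mean of 1.20 CPM in A375. Of 7 lymphocyte markers, CD3D, CD3E, CD2 and MS4A1 were at 0 in all conditions, and the summed level did not exceed 0.210 CPM in any library. The sums in single libraries reached at most 2.25 CPM for 7 myeloid markers (AIF1 and TYROBP at 0 throughout), 1.03 for 4 endothelial, 27.2 for 6 fibroblast and 69.7 for 5 keratinocyte markers. The fibroblast sum was higher in every MAFG than in every GFP library of SKMEL28 (18.3 to 21.3 against 11.4 to 12.9 CPM) and of WM164 (25.5 to 27.2 against 23.4 to 24.2). Its members moved unequally, since LUM was at 11.6 CPM with GFP and 19.9 with MAFG in SKMEL28 but at 17.9 and 8.96 in WM164, while PDGFRA was at 0.40 and 0.0445 in SKMEL28 and at 3.80 and 14.9 in WM164. The keratinocyte sum was lower with MAFG in WM164 (7.54 to 8.33 against 9.69 to 14.5 CPM) and higher in SKMEL28 (28.5 to 29.8 against 23.3 to 26.8). Nearly all of it was KRT10, with means of 12.1 CPM (GFP) and 7.93 (MAFG) in WM164 and 25.1 and 28.7 in SKMEL28. Each other keratinocyte marker had a mean of at most 0.286 CPM in every condition. The part of the lineage, fibroblast and keratinocyte sums in the results was not tested.

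The 3 CXC chemokine genes share a short stretch before their start sites, shown here because they are neighbours on chromosome 4 and differ in level between the lines. In RefSeq promoters (GRCh38.p14, 250 bases before to 50 bases after the start), 8 of the 10 genes had an entry. An NF-kB motif, spelled GGANNTTCC and read on both strands, was present in 4.56% of all 35116 promoters and in those of CXCL8, CXCL1, CXCL2, IL6 and IL7R. In the windows below, all on the coding strand and upstream of the gene, capitals mark the NF-kB match and, in CXCL8, also an AP-1 match (TGACTCA, in 4.95% of promoters). The windows lie at chr4:73740424-73740493 (plus strand), chr4:73869291-73869340 (plus) and chr4:74099248-74099297 (minus).
CXCL8: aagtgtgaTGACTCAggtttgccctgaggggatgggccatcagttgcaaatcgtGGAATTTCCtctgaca
CXCL1: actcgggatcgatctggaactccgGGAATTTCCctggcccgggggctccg
CXCL2: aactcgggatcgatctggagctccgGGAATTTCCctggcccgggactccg

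All 3 carried the same 9-letter match, which began at position -91 from the start in CXCL8, -78 in CXCL1 and -77 in CXCL2. Aligned on that match, CXCL1 and CXCL2 were identical at 43 of 49 bases, whereas CXCL8 and CXCL1 shared 21 of 40. In IL6 and IL7R a match began at positions -72 and -184, all counted from the RefSeq start. The IL1A promoters held an AP-1 match that overlaps a MAF half-site (TGCTGAC, in 4.19% of promoters), and the IL1A and IL24 promoters held an antioxidant-element core (TGACNNNGC, in 13.3%). None of the 6 motifs searched, which also included the E-box CACGTG (7.26% of promoters) and the M-box CATGTG (11.1%), was found in the IL1B window. These matches describe letters in a window and not bound sites.

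Few of the genes were well counted in any line. More than 3 counts in every GFP library were obtained for 8 genes in A375, for 5 in SKMEL28 (CXCL8, CXCL1, IL1B, LIF and IL24) and for 3 in WM164 (CXCL8, LIF and IL7R). The level that 3 counts stand for was about 0.108 CPM in WM164 GFP and 0.117 in SKMEL28 GFP libraries, and lower levels were not detectable at this depth. Compared per length in TPM, LIF led in WM164 GFP cells at 3.70 ± 0.325, CXCL1 in SKMEL28 at 6.91 ± 1.02 and IL7R in A375 at 74.6 ± 18.1 (SD, n = 3). In SKMEL28, CXCL1 was followed by CXCL8 (3.77 ± 0.167 TPM), LIF (2.53 ± 0.0551), IL1B (1.62 ± 0.0709) and IL24 (1.21 ± 0.0529), with no overlap between neighbours in that order. In A375, CXCL1 at 4.57 ± 0.02 TPM was next after IL7R, and LIF (1.62 to 2.82 TPM) overlapped with IL24 (1.76 to 2.17 TPM).

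**Figure D1:**
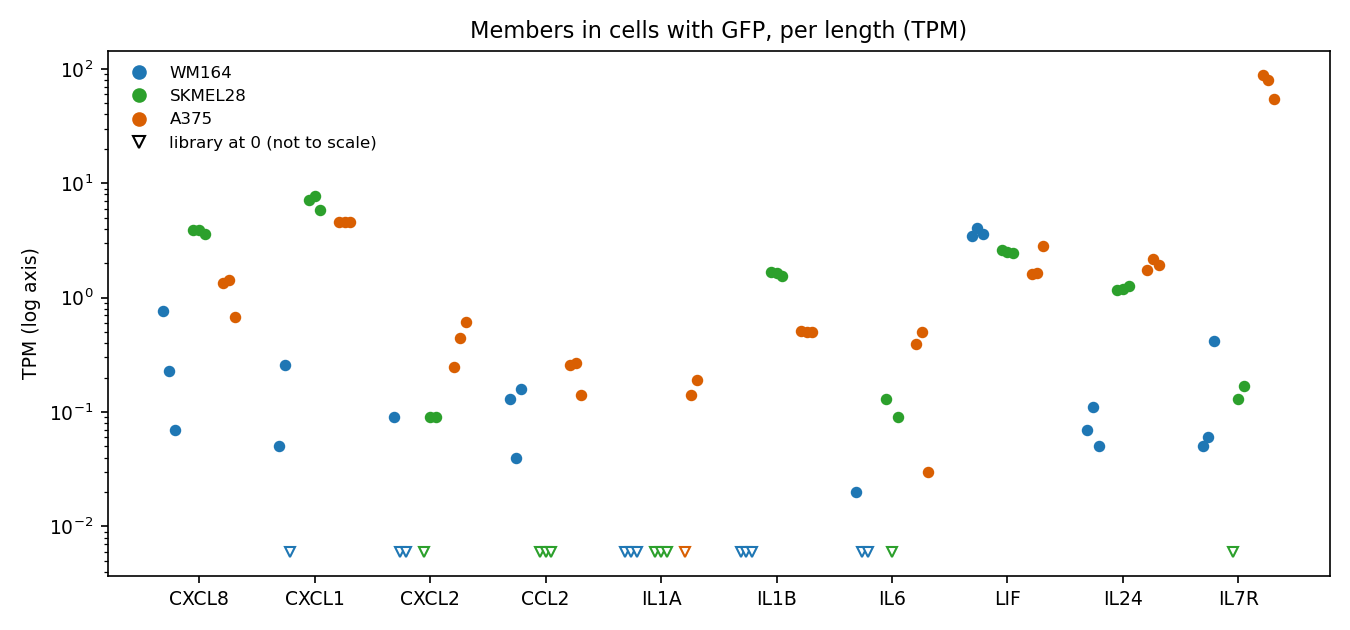
TPM of the 10 genes in the 3 GFP libraries of each line, on a log axis; each point is 1 library and open triangles mark libraries at 0. IL7R in A375 lies between 54.3 and 89.2 TPM, above every other gene, and IL1B, CXCL1 and IL24 are at 0 or below 0.3 TPM in WM164.

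In GFP cells the levels were compared between lines in 1 edgeR model of all 18 libraries. The 3 comparisons share their GFP libraries. In these bulk samples, a smaller share of expressing cells and less RNA per cell cannot be told apart. CXCL8 (ENSG00000169429.11, chr4:73740519-73743716) was highest in SKMEL28, with 6.70, 6.003 and 6.80 CPM in the 3 libraries. It was lower in A375 (2.24, 2.36 and 1.004 CPM) and lowest in WM164 (0.821, 0.564 and 0.158 CPM). The lines did not overlap, and each step passed the test, with A375 minus SKMEL28 at -1.79 (log2 difference, SE 0.40, adjusted p = 0.000511, edgeR) and A375 minus WM164 at 1.84 (SE 0.47, adjusted p = 0.00174, edgeR).

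CXCL1 (ENSG00000163739.4, chr4:73869393-73871308) split the lines differently. It was at 5.96, 5.66 and 5.69 CPM in SKMEL28 and at 3.47, 5.14 and 5.58 CPM in A375, ranges that lie close together, and had only 1, 5 and 0 counts in WM164. A375 and SKMEL28 differed by -0.29 (SE 0.38, adjusted p = 0.509, edgeR), whereas A375 exceeded WM164 by 5.97 on the log2 scale (SE 0.61, adjusted p = 2.17e-08, edgeR). CXCL2 (ENSG00000081041.9, chr4:74097040-74099196) was scarce throughout, with 6, 19 and 21 counts in A375, 0, 2 and 3 in SKMEL28 and 2, 0 and 0 in WM164. A375 exceeded WM164 (adjusted p = 0.0197, edgeR), a call that ended without WM164 GFP replicate 2 or 3 or A375 GFP replicate 3 (adjusted p 0.053 to 0.0868). Their close relative CXCL3, which shares sequence with CXCL1 and CXCL2, reached at most 11 counts in a GFP library, and CXCL5 and CXCL6 were at 0 in all 18 libraries. Reads that fit several of these paralogs were left out by counting unique alignments only, so the levels of CXCL1 and CXCL2 are uncertain. CCL2 (ENSG00000108691.9, chr17:34255274-34257208) had 9, 7 and 4 counts in A375, 4, 1 and 4 in WM164 and 0 in all 3 SKMEL28 libraries. The A375 level was at least 1.53-fold higher than SKMEL28, computed against 3 counts per library.

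The interleukin-1 genes, neighbours on chromosome 2, differed between the lines in their presence. IL1B (ENSG00000125538.11, chr2:112829751-112836816) was at 2.83, 2.41 and 2.66 CPM in SKMEL28, at 0.704, 0.924 and 1.06 CPM in A375 and at 0 in every WM164 library. SKMEL28 was at least 24.3-fold and A375 at least 8.27-fold higher than WM164, each against 3 counts per library. SKMEL28 exceeded A375 as well (A375 minus SKMEL28 -1.55, SE 0.33, adjusted p = 0.00054, edgeR). IL1A (ENSG00000115008.5, chr2:112773925-112784493) was counted in A375 alone, with 0, 13 and 19 counts, 1 of the libraries thus being at 0 as well. Its mean was at least 2.72-fold above WM164 and 2.52-fold above SKMEL28 on the same bound. Both differences passed with edgeR (adjusted p = 0.0282 and 0.0316) but not with DESeq2 (0.359 and 0.379), nor when any 1 GFP library of the lines compared but A375 replicate 1 was left out (0.0524 to 0.0814, edgeR). IL6 (ENSG00000136244.12, chr7:22725884-22732002) had 16, 9 and 1 counts in A375, 4, 0 and 2 in SKMEL28 and 1, 0 and 0 in WM164. These ranges overlap between A375 and SKMEL28, and IL6 was too low for the test.

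Unlike the other 7 tested genes, LIF (ENSG00000128342.5, chr22:30240453-30246759) was highest in WM164, at 25.2, 25.2 and 23.5 CPM, lower in SKMEL28, at 12.2, 9.64 and 11.1 CPM, and lowest in A375, at 6.88, 6.79 and 6.19 CPM. Neighbours did not overlap, and both steps passed the test (WM164 minus SKMEL28 1.16, SE 0.17, adjusted p = 4.76e-06; A375 minus SKMEL28 -0.73, SE 0.17, adjusted p = 0.000828, edgeR). IL24 (ENSG00000162892.15, chr1:206897443-206904139) ran in the opposite order, at 2.998, 3.32 and 4.07 CPM in A375, 1.77, 1.28 and 1.86 CPM in SKMEL28 and 0.214, 0.265 and 0.119 CPM in WM164. The steps of IL24 were 1.07 for A375 minus SKMEL28 (SE 0.29, adjusted p = 0.00242) and 4.07 for A375 minus WM164 (SE 0.36, adjusted p = 2.49e-09, edgeR), and WM164 was also below SKMEL28 (adjusted p = 7.08e-07, edgeR).

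IL7R (ENSG00000168685.15, chr5:35852695-35879603) set A375 apart from the other lines by the largest fitted differences among the 8 tested genes. It was at 265, 269 and 237 CPM in A375, at 0.393, 0.464 and 0.553 CPM in WM164, and at 0, 0.689 and 0.311 CPM in SKMEL28. A375 exceeded WM164 by 9.09 (SE 0.29, adjusted p = 1.25e-16, edgeR) and SKMEL28 by 9.76 on the log2 scale (SE 0.31, adjusted p = 1.04e-16, edgeR). WM164 and SKMEL28 overlapped and differed by 0.67 (SE 0.62, adjusted p = 0.378, edgeR). The defining lymphocyte markers CD3D, CD3E and MS4A1 were at 0 in the same A375 libraries. Of the 8 genes tested in this model, 8 passed between A375 and WM164, where 71.5% of all genes did, 6 between A375 and SKMEL28 (68.6% of all genes) and 5 between WM164 and SKMEL28 (56.8%). The lines differ in most genes, and these counts are read against that background. The IL1A call between A375 and either other line and the CXCL2 call between A375 and WM164 are those lost under the alternatives given above, and leaving out 1 library gave 6 to 8 genes between A375 and WM164 and 5 to 6 between A375 and SKMEL28.

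**Figure D2:**
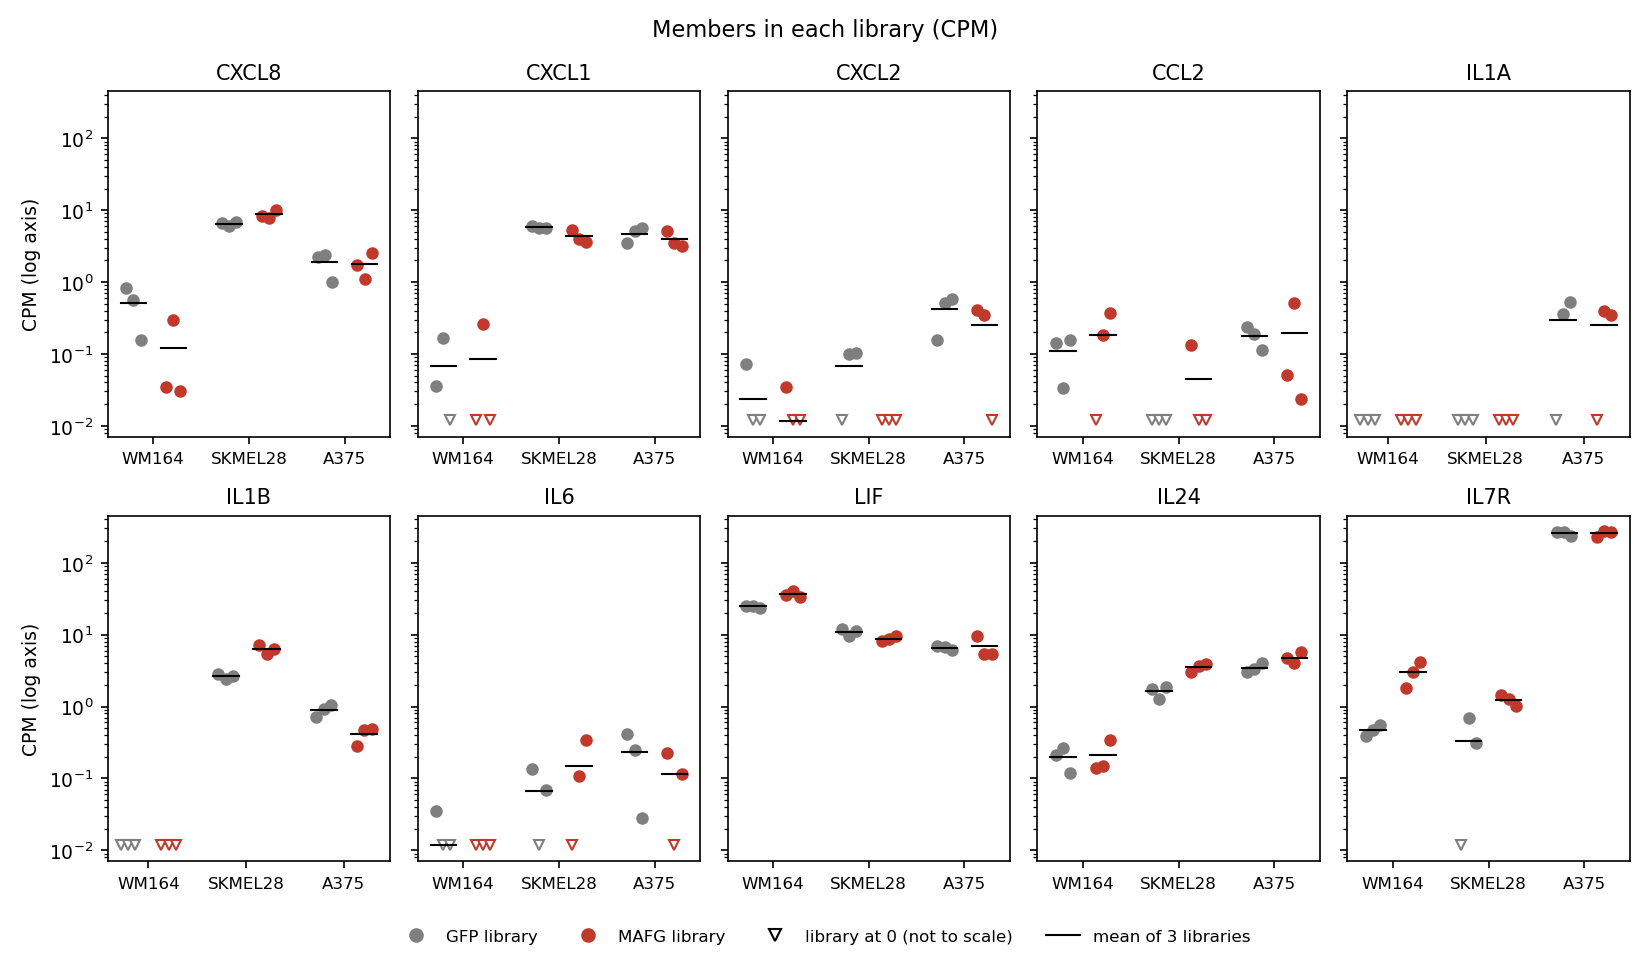
CPM of each gene in the 18 libraries on a shared log axis, grey for GFP and red for MAFG, with the mean of the 3 libraries as a bar and libraries at 0 as open triangles. IL1B and IL24 in SKMEL28 and LIF and IL7R in WM164 lie higher in all MAFG than in all GFP libraries.

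MAFG was then compared with GFP within each line. In WM164, LIF and IL7R were the genes with enough counts for the test, and both rose. LIF went from 25.2, 25.2 and 23.5 CPM with GFP to 35.9, 40.8 and 33.8 CPM with MAFG. All 3 MAFG libraries lay above all 3 GFP libraries, a 1.49-fold rise (log2 0.58, SE 0.08, adjusted p = 4.02e-05, quasi-likelihood test of edgeR, adjusted after Benjamini and Hochberg over all genes). Its antisense neighbours share 86 bases (LIF-AS1) and 83 bases (LIF-AS2) of exon with it, and LIF-AS1 had at most 3 counts in any library. IL7R went from 0.393, 0.464 and 0.553 to 1.82, 3.07 and 4.17 CPM, or from 11 to 14 counts up to 52 to 135. In CPM the groups were well apart, a 6.41-fold rise (log2 2.68, SE 0.38, adjusted p = 2.42e-05, edgeR), while the level stayed far below that of A375. In the deposited TPM they overlapped, with 0.05, 0.06 and 0.42 for GFP and 0.3, 0.45 and 1.07 for MAFG. Over all tested genes of WM164, 16.2% rose, 15.6% fell and 6.94% passed with a fold change above 2. With limma on the deposited TPM, IL7R was under the filter and 1 of the 10 genes passed.

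The other 8 genes were too low for a test in WM164. CXCL8 had 23, 17 and 4 counts with GFP and 1, 8 and 1 with MAFG, groups that overlap. It entered the test, and passed as lower, in the model of 18 libraries (log2 -2.15, adjusted p = 0.0403), without GFP replicate 3 (-2.54, adjusted p = 0.036) and without MAFG replicate 2 (-3.82, adjusted p = 0.0133, edgeR), each of which adds a second gene above 2-fold in this line. It did not pass with DESeq2 (-2.13, adjusted p = 0.121), without a count filter (-2.11, adjusted p = 0.063) or without MAFG replicate 1 or 3 (adjusted p 0.187 to 0.198). IL24 had 3 to 8 counts with GFP and 4 to 11 with MAFG, and CCL2 had 1 to 4 and 0 to 12. CXCL1 reached 7 counts, CXCL2 2 and IL6 1, and IL1A and IL1B were at 0 in all 6 libraries.

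In SKMEL28, 6 genes could be tested, and CXCL8, IL1B, IL24 and IL7R rose, 3 of them more than 2-fold. Here 14.6% of all tested genes rose, 15.3% fell and 4.74% passed with a fold change above 2. A gene can pass the filter on low counts through 1 condition alone, so this count describes the tested genes and not all 10. IL1B went from 2.83, 2.41 and 2.66 to 7.11, 5.31 and 6.38 CPM, with every MAFG library at least 148 counts and every GFP library at most 85. The rise was 2.37-fold (log2 1.25, SE 0.19, adjusted p = 0.000138, edgeR). IL24 went from 1.77, 1.28 and 1.86 to 3.003, 3.69 and 3.87 CPM, again without overlap, a 2.13-fold rise (log2 1.09, SE 0.25, adjusted p = 0.00389, edgeR; 0.0519 with limma on log2(TPM + 0.1)). IL24 shares 823 exonic bases with FCMR on the opposite strand. FCMR was at 35.0 CPM with GFP and 38.7 with MAFG in these cells, and whether the counting used strand is not given in the sources used here, so reads of the shared part cannot be told apart.

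IL7R in SKMEL28 had 0, 14 and 9 counts with GFP and 43, 35 and 27 with MAFG (0 to 0.689 against 1.01 to 1.43 CPM). Its MAFG libraries alone carried it through the filter. The rise of 1.98 on the log2 scale (SE 0.70, adjusted p = 0.0437, edgeR) did not pass when any library but GFP replicate 2 was left out (adjusted p 0.066 to 0.127 without GFP replicate 1 or 3 or any MAFG replicate). CXCL8 went from 6.70, 6.003 and 6.80 to 8.34, 7.89 and 10.02 CPM, a narrow gap between the groups and a 1.34-fold rise (log2 0.43, SE 0.15, adjusted p = 0.0411, edgeR). Its call ended with DESeq2 (adjusted p = 0.0756) and with limma on log2(TPM + 1) (0.107) and log2(TPM + 0.1) (0.101). It also ended in the model of 18 libraries (0.53, edgeR) and when any library but MAFG replicate 2 was left out (0.0584 to 0.172, edgeR). Without GFP replicate 1 or 3 or MAFG replicate 1 or 3, 2 of the 4 calls, IL1B and IL24, were left in this line.

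The remaining tested genes of SKMEL28 were lower in each MAFG than in each GFP library without passing. CXCL1 was at 5.96, 5.66 and 5.69 CPM with GFP and 5.37, 3.91 and 3.64 with MAFG (log2 -0.42, SE 0.19, adjusted p = 0.105, edgeR). It passed with limma on log2(TPM + 1) (adjusted p = 0.0483) and on log2(TPM + 0.1) (adjusted p = 0.0492). It also passed, at -0.61, without MAFG replicate 1 (adjusted p = 0.0321, edgeR). LIF was at 12.2, 9.64 and 11.1 CPM with GFP and 8.14, 8.64 and 9.61 with MAFG (log2 -0.32, SE 0.14, adjusted p = 0.0845, edgeR), and passed at -0.41 when GFP replicate 2 was left out (adjusted p = 0.0408, edgeR). CXCL2 had 0 counts in all MAFG libraries and at most 3 with GFP, IL6 had 0, 3 and 9 with MAFG and 4, 0 and 2 with GFP, and CCL2 had 4, 0 and 0 with MAFG. IL1A was at 0 in all 6 libraries.

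In A375, 8 genes were tested and 0 passed, with edgeR as with DESeq2, and 0 had an unadjusted p under 0.05. The count was also 0 without MAFG replicate 1, the library that stood apart. Of all genes tested in this line, 0.780% rose, 0.0634% fell and 0.665% passed with a fold change above 2. The median standard error over all genes was 0.176 on the log2 scale, against 0.110 in WM164 and 0.119 in SKMEL28. IL7R was at 265, 269 and 237 CPM with GFP and 232, 275 and 265 with MAFG, overlapping groups with a log2 fold change of 0.00 and a 95% interval of -0.21 to 0.21. IL24 went from 2.998, 3.32 and 4.07 to 4.68, 3.97 and 5.72 CPM (log2 0.47, SE 0.23, adjusted p = 0.887, edgeR), with 1 MAFG library inside the GFP range. IL1B had 27, 34 and 38 counts with GFP and 11, 18 and 21 with MAFG, without overlap (log2 -1.10, SE 0.55, adjusted p = 0.886, edgeR). IL1B met the filter on low counts through its GFP libraries alone, the condition in which it was higher. Its deposited TPM did not show the same order, with 0.50 to 0.51 for GFP and 0.14, 0.93 and 0.49 for MAFG. CXCL8 (log2 -0.06, 95% interval -0.91 to 0.79), CXCL1 (-0.27, -0.78 to 0.24) and LIF (0.04, -0.41 to 0.48) overlapped between the groups. So did CXCL2, with 6, 19 and 21 against 16, 13 and 0 counts (95% interval -2.82 to 1.28), and IL1A, with 0, 13 and 19 against 0, 15 and 15 counts (-2.73 to 2.29). CCL2 (9, 7 and 4 against 2, 19 and 1 counts) and IL6 (16, 9 and 1 against 9, 0 and 5) were too low for the test.

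**Figure D3:**
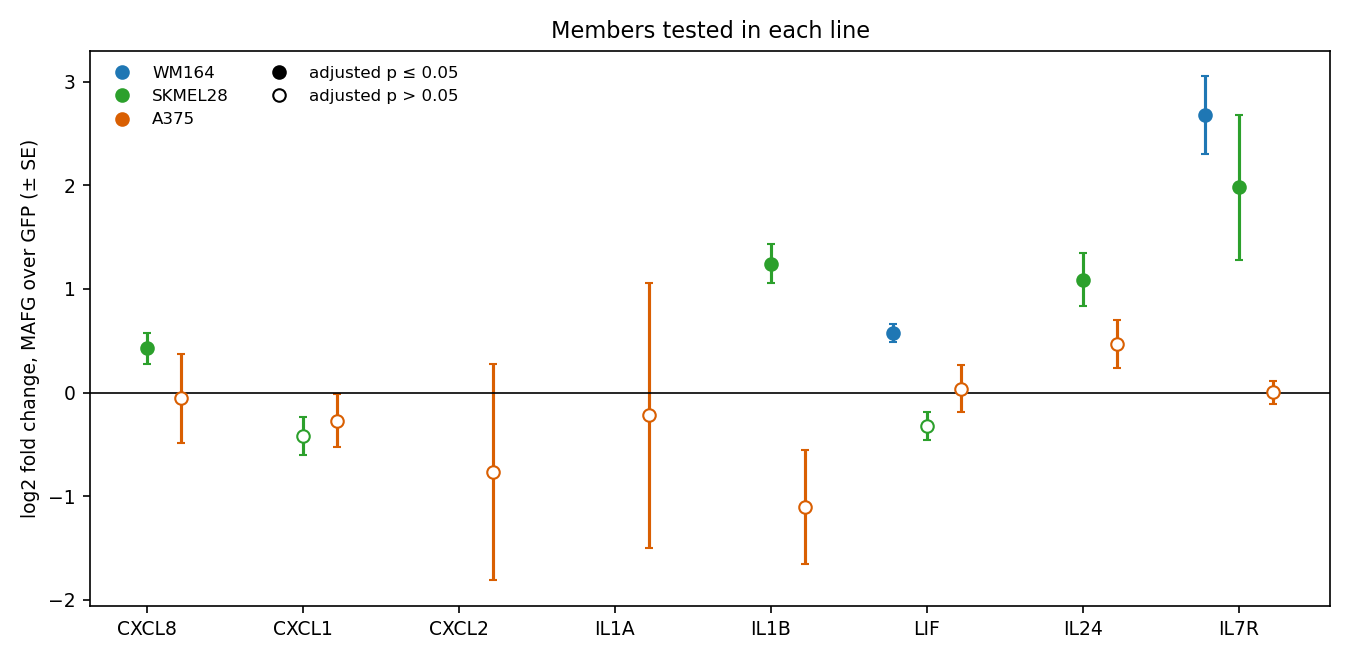
Log2 fold change of MAFG over GFP with its standard error for the genes tested in each line; filled points have an adjusted p of 0.05 or less. IL7R stands at 2.68 in WM164 and 1.98 in SKMEL28 and at 0.00 in A375, and IL1B at 1.25 in SKMEL28 and -1.10 in A375.

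Whether the response to MAFG differed between lines was tested as a contrast in the model of 18 libraries, where 13.7% of all genes passed for WM164 minus SKMEL28, 9.21% for WM164 minus A375 and 9.51% for SKMEL28 minus A375. Of 8 genes, 2, 1 and 2 passed. The IL7R response was larger in WM164 than in A375 by 2.69 (SE 0.42, adjusted p = 0.00016, edgeR) and larger in SKMEL28 than in A375 by 2.07 (SE 0.54, adjusted p = 0.0167, edgeR). The second of these did not pass without SKMEL28 GFP replicate 1, at 1.40 (adjusted p = 0.064), or without SKMEL28 MAFG replicate 1, at 1.94 (adjusted p = 0.0538). WM164 and SKMEL28 differed in their IL7R response by 0.62 (SE 0.73, adjusted p = 0.681). The IL1B response was larger in SKMEL28 than in A375 by 2.35 (SE 0.48, adjusted p = 0.00434, edgeR). LIF responded higher in WM164 than in SKMEL28 by 0.90 (SE 0.24, adjusted p = 0.0127, edgeR). For CXCL8 the contrast of WM164 minus SKMEL28 was -2.57 (SE 0.80, adjusted p = 0.0352, edgeR), on the few WM164 counts given above. It missed the threshold, at -2.61 to -2.09, when any library of these lines but WM164 GFP replicate 3, WM164 MAFG replicate 2 or SKMEL28 MAFG replicate 2 was left out. In WM164 minus A375, where CXCL8 did not pass (-2.09, adjusted p = 0.126), it passed without WM164 MAFG replicate 2 (-3.78, adjusted p = 0.0244, edgeR), and LIF (0.53, adjusted p = 0.191) passed without A375 MAFG replicate 1 (0.87, adjusted p = 0.000812, edgeR). IL1A and IL1B were at 0 in WM164, so their response there has no value.

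Most of the tested genes in a list of receptors for these ligands and for related cytokines rose in WM164 and SKMEL28. The receptor genes CXCR1, CXCR2, CCR2 and IL20RA were too low for the test in every line. Of 19 receptor genes, IL7R included, 9 were tested in WM164, and 7 rose, 6 of them more than 2-fold, where 16.2% of all tested genes rose and 6.94% passed above 2-fold. In SKMEL28, 7 of 10 rose, against 14.6% of all tested genes, and the others did not pass in either line. Of these 7, IL7R and IL1RL1 met the filter on low counts in their MAFG libraries and not in their GFP libraries, so that they entered the test through the condition in which they were higher. In A375, 0 of 9 passed with edgeR as with DESeq2, and 1 had an unadjusted p under 0.05. The tested receptors had a median log2 fold change of 1.75 (WM164), 0.63 (SKMEL28) and 0.0016 (A375), beside -0.0015, -0.0080 and -0.00037 over all genes. IL1R1 in SKMEL28 (log2 1.09) and IL22RA1 in A375 (0.99), which did not pass, also met the filter through their MAFG libraries alone. The SKMEL28 count and median thus rest in part on genes that entered through the condition in which they were higher. Limma on either log2(TPM) scale left 0 receptor calls in SKMEL28.

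LIFR, the ligand-binding chain for LIF, went from 31.5, 31.7 and 32.99 to 122, 117 and 119 CPM in WM164 (log2 1.89, SE 0.06, adjusted p = 1.08e-13, edgeR). In SKMEL28 it was far lower and went from 0.799, 1.03 and 1.24 to 3.84, 2.83 and 3.38 CPM (log2 1.71, SE 0.29, adjusted p = 0.000304, edgeR). In A375 it was at 26.1 to 33.5 CPM with GFP and 19.0 to 26.6 with MAFG. IL6ST, the shared gp130 chain, rose in SKMEL28 from 138 to 144 CPM up to 196 to 220 CPM (log2 0.58, SE 0.06, adjusted p = 2.41e-06, edgeR).

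In WM164, IL1R1, the signalling receptor for both interleukin-1 forms, went from 6.75, 7.63 and 6.44 to 35.6, 35.0 and 34.8 CPM (log2 2.33, SE 0.09, adjusted p = 2.24e-12, edgeR). IL1R2, a decoy receptor that binds interleukin-1 without signalling, went from 0.536 ± 0.163 to 2.28 ± 0.179 CPM (SD, n = 3; log2 2.07, adjusted p = 0.000252, edgeR) and was at 0 in all libraries of the other lines. IL1RL1, the receptor for interleukin-33, rose in SKMEL28 from 0.404 ± 0.234 to 1.26 ± 0.415 CPM (log2 1.68, adjusted p = 0.0233, edgeR). Chosen after their values were seen, IL6ST in WM164 (log2 1.75), OSMR (0.82 in WM164, 0.30 in SKMEL28), IL1RAP (1.05 and 0.35) and IL6R in SKMEL28 (0.56) also rose, with adjusted p from 2.0e-13 to 0.00396 (edgeR).

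**Figure D4:**
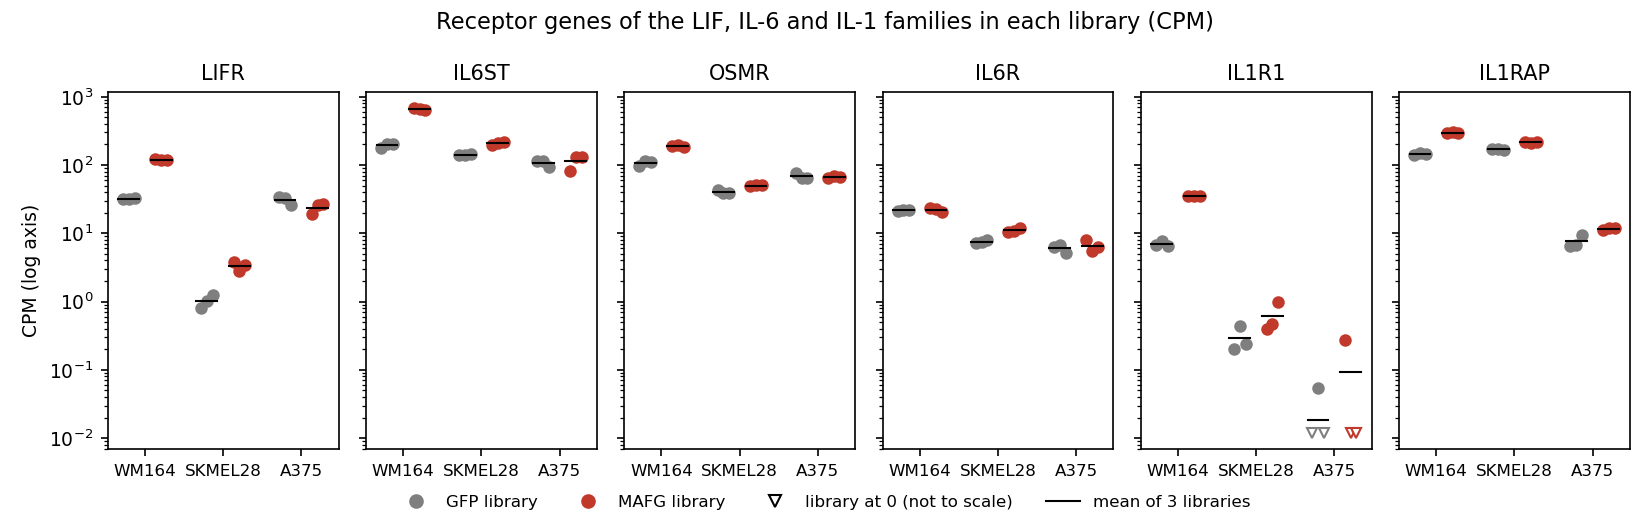
CPM of 6 receptor genes in the 18 libraries on a shared log axis, grey for GFP and red for MAFG, with means as bars and libraries at 0 as open triangles. In WM164, LIFR, IL6ST, OSMR, IL1R1 and IL1RAP lie higher in every MAFG library, and IL6R overlaps between GFP (21.2 to 22.2 CPM) and MAFG (20.2 to 23.3 CPM).

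Downstream of the interleukin-1 receptor, 20 genes of NF-kB and its feedback were split. In WM164, 7 of 18 tested rose and 2 fell, where 16.2% of all tested genes rose and 15.6% fell (4 and 1 without GFP replicate 3, and 1 lower without MAFG replicate 2 or 3). TRAF1, an adaptor of TNF receptors, went from 9.29 ± 0.318 to 119 ± 3.27 CPM (SD, n = 3; log2 3.68, adjusted p = 1.98e-16, edgeR), and IER3, an early stress-response gene, rose by 1.34 (adjusted p = 4.24e-12, edgeR). PTGS2, the inducible prostaglandin synthase COX-2, had 4, 1 and 2 counts with GFP and 40, 38 and 35 with MAFG (adjusted p = 4.97e-05, edgeR). PTGS2 met the filter through its MAFG libraries alone. In SKMEL28, 3 of 19 rose and 7 fell, where 14.6% of all tested genes rose and 15.3% fell (4 lower without GFP replicate 1, GFP replicate 2 or MAFG replicate 1). TRAF1 rose by 0.90 (adjusted p = 0.0241), and RELB, an NF-kB subunit, and NFKBIZ, a nuclear regulator of NF-kB, fell by 0.86 and 0.70 (adjusted p = 0.0309 and 1.12e-06, edgeR). NFKBIZ, added for WM164 after its value was seen, fell there as well (log2 -0.81, adjusted p = 1.4e-07, edgeR). In A375, TNFAIP3, an enzyme that shuts NF-kB signalling down, was the 1 gene of 20 that passed, from 6.65, 7.72 and 6.53 to 14.5, 13.8 and 10.2 CPM (log2 0.87, SE 0.17, adjusted p = 0.044, edgeR), and 0 rose when any 1 GFP library or MAFG replicate 2 was left out. DESeq2 gave 2 higher, and leaving out MAFG replicate 1 gave 2 higher and 1 lower.

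Among 14 JAK and STAT genes and their feedback inhibitors, 2 rose and 1 fell of 14 tested in WM164, where 16.2% of all tested genes rose and 15.6% fell. These counts do not set the list apart, and SOCS1 met the filter through its MAFG libraries alone. The inhibitors SOCS1 and SOCS3 rose by 2.30 (adjusted p = 0.00194) and 1.21 (adjusted p = 1.96e-09), and the kinase gene JAK2 fell by 0.64 (adjusted p = 1.26e-05, edgeR). In SKMEL28, JAK2 instead rose by 0.80 (adjusted p = 2.91e-05), and SOCS2 and STAT5A fell by 2.43 (adjusted p = 5.73e-05) and 0.68 (adjusted p = 0.000956, edgeR) among 2 genes that rose and 4 that fell of 14 (14.6% and 15.3% of all tested genes). In A375, 0 of 12 passed with edgeR or DESeq2, and 0 had an unadjusted p under 0.05.

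While IL1B rose in SKMEL28, 5 of 9 tested genes that mature and release interleukin-1 fell there, against 15.3% of all tested genes, and the other 4 did not pass (3 fell without GFP replicate 1 or 2 or MAFG replicate 2 or 3). NLRP1, a sensor that forms inflammasomes, went from 128, 137 and 138 counts to 1, 3 and 10 (log2 -4.93, SE 0.45, adjusted p = 8.54e-07, edgeR). PYCARD, the inflammasome adaptor ASC, fell from 12.0 to 3.91 CPM (adjusted p = 7.71e-07) and CASP1, the protease that cleaves the interleukin-1β precursor, from 30.0 to 22.6 CPM (adjusted p = 0.00399, edgeR). In WM164, 2 of 8 rose and 1 fell, against 16.2% and 15.6% of all tested genes. NLRP1 in SKMEL28 and AIM2 in WM164 met the filter through 1 condition alone, GFP and MAFG in turn. AIM2, a sensor of cytosolic DNA, had 2, 3 and 1 counts with GFP and 45, 77 and 88 with MAFG (adjusted p = 9.82e-07), S100A13, which takes part in interleukin-1α release, rose by 0.44 (adjusted p = 0.000403) and CASP4 fell by 0.67 (adjusted p = 1.7e-06, edgeR). In A375, 0 of 8 passed with edgeR and 1 with DESeq2, and 2 had an unadjusted p under 0.05.

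Other ligands of the same families were also mostly low. Of 32 chemokine genes, the 4 listed above included, 5 were tested in WM164 with 1 higher (2 without MAFG replicate 3) and 2 lower, 7 in SKMEL28 with 3 higher and 2 lower (1 lower without GFP replicate 1 or 3 or MAFG replicate 2), and 6 in A375 with 0 passing by either tool and 0 at an unadjusted p under 0.05. Over all tested genes 16.2% were higher and 15.6% lower in WM164, and 14.6% and 15.3% in SKMEL28. In WM164, CXCL14 met the filter through its MAFG libraries alone and CCL20 through its GFP libraries alone. CCL20, a chemokine for CCR6-bearing cells, fell in WM164 from 1.71 to 0.511 CPM (log2 -1.74, adjusted p = 0.00347) and rose in SKMEL28 from 4.76 to 9.80 CPM (log2 1.04, adjusted p = 0.0003, edgeR). CXCL14 in WM164 had 0 counts in each GFP library and 44, 21 and 26 with MAFG, at least 9.59-fold higher against 3 counts per library. CCL28 fell by 0.39 in WM164 (adjusted p = 0.00191), CCL3 fell by 1.47 in SKMEL28 (adjusted p = 0.0123), and CX3CL1 rose there by 0.60 (adjusted p = 0.00214, edgeR).

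Of 36 interleukins, colony-stimulating factors and related cytokines, 5 of 7 tested rose and 1 fell in WM164 (16.2% and 15.6% of all tested genes), and 3 of 10 rose in SKMEL28 (14.6%), where the other 7 did not pass (1 of them, LIF, lower without GFP replicate 2). In A375, 0 of 16 passed with either tool, and 1 had an unadjusted p under 0.05. IL11, a relative of LIF that also uses IL6ST, had 5, 0 and 2 counts with GFP and 46, 27 and 25 with MAFG in WM164, and 5, 3 and 3 against 27, 15 and 11 in SKMEL28. CLCF1, another ligand of this family, rose in WM164 from 0.392 to 1.11 CPM (adjusted p = 0.0332, edgeR). IL11 in both lines and CLCF1 in WM164 met the filter through their MAFG libraries alone, so the counts and medians of this list rest in part on genes that entered through the condition in which they were higher. In the order WM164, SKMEL28 and A375, the median log2 fold change of the tested genes was 1.13, 0.65 and 0.0073 for these cytokines and -0.25, 0.25 and 0.06 for the chemokines. It was 0.11, -0.18 and 0.09 for the NF-kB list, -0.03, -0.17 and -0.01 for the JAK and STAT list, and 0.03, -0.30 and 0.06 for the interleukin-1 maturation list.

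**Figure D5:**
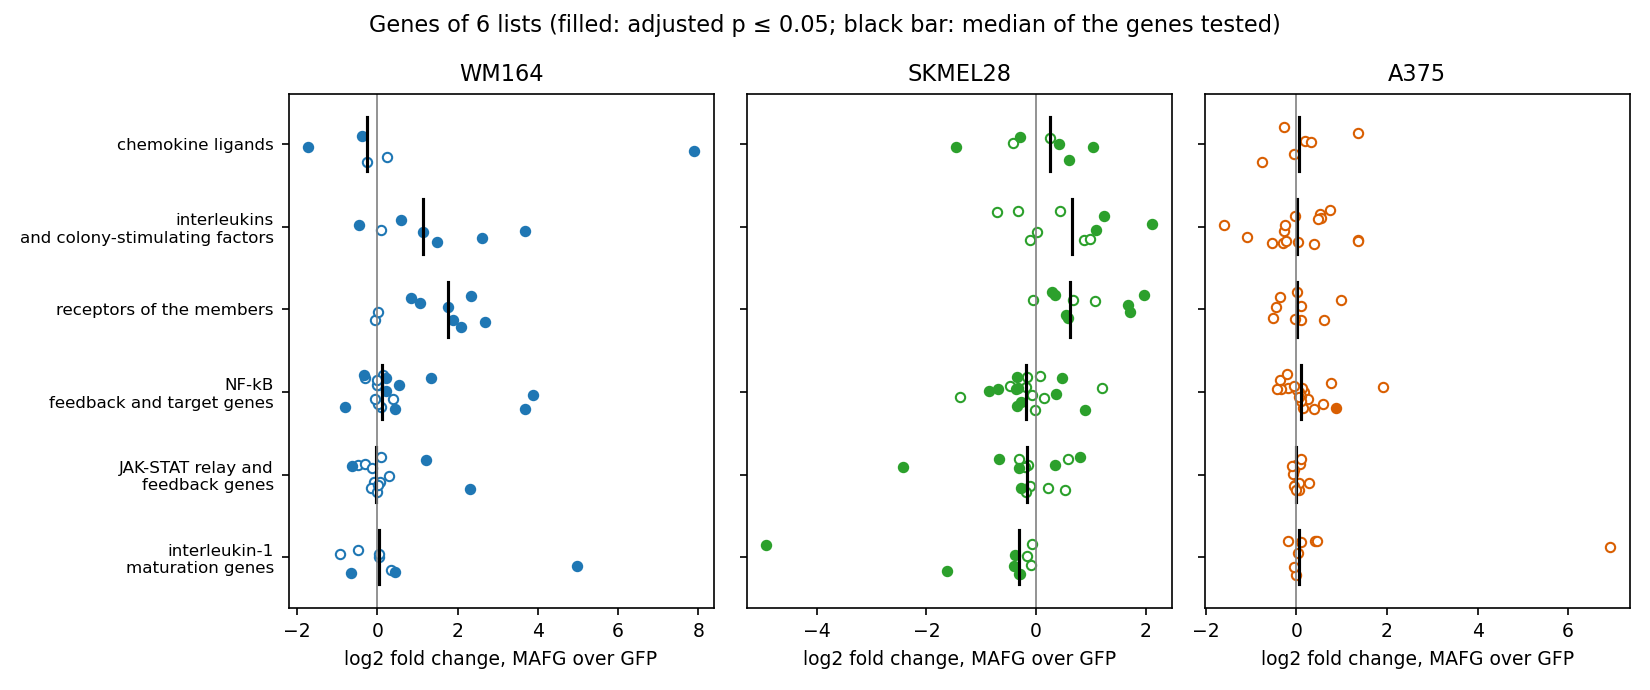
Log2 fold change of MAFG over GFP for the tested genes of 6 lists in each line; each point is 1 gene, filled where the adjusted p is 0.05 or less, and black bars are medians. The receptor median is at 1.75 in WM164 and 0.63 in SKMEL28, the interleukin-1 maturation median at -0.30 in SKMEL28, and the points farthest to the right in WM164 (CXCL14) and A375 (AIM2) have 0 counts in all GFP libraries, so their fitted fold is no estimate of size.

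The genes most like each of the 8 tested genes over the 18 libraries, among 18767 genes and by Pearson's r of log2 CPM, followed the differences between lines. The libraries fall into 3 lines, so these values describe the pattern of the lines and carry no p. They were TYRO3 (0.989) and PDIA6 (0.980) for LIF, BEX4 (0.988) and DDIAS (0.986) for IL1B, SPTLC1 (0.988) and PLP2 (0.984) for IL24, and LINC01579 (0.982) and DCLK1 (0.981) for CXCL1. For IL7R they were LIMCH1 and FAM167A (both 0.980), for CXCL8 ENOX2 (0.961) and CORO1C (0.960), for IL1A LINC02241 (0.961) and AC024405.2 (0.954), and for CXCL2 AL161449.2 (0.903) and ZNF628 (0.892).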

How the data were processed

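Reads were trimmed by the authors with cutadapt 1.8.1, aligned to GRCh38 with STAR 2.7.7a (versions from the submitters' processing notes) and counted per gene with featureCounts, unique alignments only. Pairs with a short end were dropped. Which annotation release was used and whether strand entered the counting is not given in the sources used here, and the labels name a non-stranded kit where the methods describe a strand-specific one. The deposited counts are whole numbers without normalization. TPM, also deposited, sums to about the same total in each library, and the notes name RSEM 1.3.0 and DESeq2.

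From the counts, MAFG was compared with GFP on the 6 libraries of each line with edgeR 4.0.16 in R 4.3.3 (TMM, filterByExpr, quasi-likelihood F test), adjusted over all genes tested, with calls at an adjusted p of 0.05 or less. The standard error is the absolute log2 fold change over the square root of F, and 95% intervals are 1.96 standard errors. Differences between lines were contrasts in 1 model of 18 libraries. DESeq2 1.42.0, limma 3.58.1 on log2(TPM + 1) and log2(TPM + 0.1) where 3 libraries reached a TPM of 1, other filters and size factors, the replicate number as a block, and leaving out each library were alternatives. The tests were checked on simulated data. The exact permutation test of 3 against 3 libraries cannot go below 0.1 and was not used. Positions are from GENCODE v44, sequences from RefSeq. Figures were drawn with matplotlib 3.10.9.

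The 10 genes and the 6 lists were chosen with earlier results of these data known. From each list and line, up to 3 further genes were named, those with the largest change among genes past the threshold whose groups do not overlap; 1 gene so chosen is not reported here. CRLF2 and SOD2 have an additional row each in the table, which was not tested. Counting intervals and bounds cover counting error only.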

Additional observations from a re-analysis of the deposited data

Results flagged for a closer look

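In 5 cases the response to MAFG differed between lines by the contrast in the model of 18 libraries (edgeR, adjusted p of 0.05 or less). The IL7R response in WM164 minus A375 was 2.69 on the log2 scale and stayed past the threshold in all 16 alternatives, from 2.37 to 2.95. The IL1B response in SKMEL28 minus A375 was 2.35, from 2.13 to 2.50 over its 16 alternatives, all past the threshold. Its A375 part (log2 -1.10) did not pass by itself (adjusted p = 0.886, edgeR). The mean TPM of IL1B in A375 was 0.503 with GFP and 0.52 with MAFG, and no contrast of the response was run on TPM. The LIF response in WM164 minus SKMEL28 was 0.90, from 0.82 to 0.98, also past the threshold in all 16. The IL7R response in SKMEL28 minus A375 was 2.07 and passed in 14 of 16. The CXCL8 response in WM164 minus SKMEL28 was -2.57 and passed in 7 of 16, with the WM164 libraries at 1 to 23 counts.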

How the results depend on the processing

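Of the log2 differences of single genes, 420 kept their direction and side of the threshold over the alternatives, 41 no longer passed, 4 newly passed and 19 changed sign, all of these in A375 and none past the threshold. The replicate numbers did not pair the libraries, with correlations of same-numbered deviations from -0.033 to 0.012. With the replicate block, the counts of passing genes stayed at 2 in WM164, 4 in SKMEL28 and 0 in A375. The block moved LIF in A375 to -0.00709 and IL7R to -0.00281. IL7R in A375 was also at -0.00385 with DESeq2, -0.00283 with its size factors in edgeR, -0.00259 without a count filter, and -0.110 on log2(TPM + 1), and -0.113 on log2(TPM + 0.1). CXCL8 in A375 was at 0.0725 and 0.0901 in that order. Without 1 library, the A375 values ranged from -0.43 to 0.20 for CXCL8, -0.81 to 0.51 for IL1A, -0.27 to 0.17 for LIF and -0.0586 to 0.0922 for IL7R. On either TPM scale, 1 gene passed in WM164 and 0 with a fold change above 2. In SKMEL28, 0 passed with a fold change above 2 on either scale. In all, 2 passed on log2(TPM + 0.1), IL1B as higher and CXCL1 as lower. On log2(TPM + 1), 3 passed, IL1B and IL24 as higher and CXCL1 as lower. In the model of 18 libraries, 2 passed in WM164 with a fold change above 2. For WM164 minus A375, 2 passed with DESeq2 and without a count filter. Leaving out 1 library gave 1 to 2 genes above 2-fold in WM164, 2 to 4 passing in SKMEL28, and 1 to 2 in each of the 3 contrasts of the response. The SKMEL28 counts include CXCL1 as lower without MAFG replicate 1 and LIF as lower without GFP replicate 2. Fewer genes pass a TPM of 1 than the count filter; the cause of the other changes was not tested. Depth limits CCL2, IL6, CXCL2 and IL1A, which had at most 21 counts in any library.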
